A study of Arabidopsis thaliana with 14 samples.

Results

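The comparison described here sets rosette leaves that had carried a GA3-loaded silk microneedle for 24 h against leaves of plants that received no needle (0 h). The groups hold 6 of the 14 RNA-seq libraries of the series, 3 labelled GA3 24 h and 3 labelled untreated 0 h, chosen by their labels alone. The edgeR fit behind the p-values of single genes used all 14 libraries. All plants were ft-10, an Arabidopsis thaliana line with a lesion in FLOWERING LOCUS T (FT), grown in soil for 30 days at 22 °C under 16 h of light and 8 h of dark. The needles of the treated plants were cast with 15 mM GA3, a bioactive gibberellin. The series also holds leaves with a mock silk needle without GA3 at 24 h (n = 3), and GA3 needles at 3 h (n = 3) and 168 h (n = 2). The 2 groups compared differ in needle, hormone and 24 h of elapsed time, which cannot be told apart in this contrast. Harvest hours are not given in the sources used here, and 1 mutant line was used, and plants with a working FT were not analysed here.

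Gibberellins are diterpene hormones that promote stem and leaf growth, germination and, in Arabidopsis above all in short days, flowering. The receptors GID1A, GID1B and GID1C bind the hormone, then join the DELLA proteins, which are growth repressors, and the F-box protein SLY1 marks the DELLAs for destruction. The pathway is known for feedback: in Arabidopsis, DELLA proteins promote transcription of the late synthesis genes and the receptors, and bioactive hormone raises transcription of the GA2OX genes that inactivate it. Because whole leaves were sequenced, fewer cells of a type and less RNA per cell cannot be told apart in any result below.

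Read totals of the 6 libraries ran from 21813625 to 25337896, with 92.3% to 95.8% of reads in genes. Multimapping reads made up 1.01% to 3.43%, and untreated replicate 3 held the highest share. GA3 24 h libraries had 1.05% ± 0.038 (SD, n = 3) and untreated libraries 2.12% ± 1.18 (SD, n = 3), which gave an exact two-sided permutation p of 0.1, the smallest p that 3 against 3 allows. The shares of reads outside annotated features (1.17% ± 0.15 after GA3 against 1.84% ± 0.34), on organelle genes (0.0218% ± 0.000683 against 0.0594% ± 0.0393) and on the opposite strand (4.98% ± 0.13 against 5.43% ± 0.0716) were also fully separated between the groups, and their part in the results was not tested. Levels below are CPM, reads scaled to library sizes adjusted by TMM. Across genes, Spearman's rho between log CPM of 2 libraries lay from 0.950 to 0.975 within GA3 24 h, from 0.949 to 0.988 within untreated and from 0.912 to 0.954 between the groups.

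Of 20077 genes tested, 587 were higher and 402 lower at 24 h after the GA3 needle than in untreated leaves (edgeR quasi-likelihood test, Benjamini-Hochberg adjusted p under 0.05). These calls are 4.93% of all genes tested, 2.92% higher and 2% lower. They rest on a fit of all 14 libraries, so the spread of the other groups enters each p-value. The median log2 fold change was 1.42 among the genes that rose and -0.91 among those that fell, against 0.02 over all genes tested. At least a 4-fold difference was fitted for 150 of the genes that rose and for 41 of those that fell. Of the 989 called genes, 502 (50.8%) had no symbol and were left out of the rankings below. The libraries of the 2 groups did not overlap in 983 of the 989 called genes, and did not overlap in 27.9% of all genes tested. Separation of the 2 groups in a called gene named below is therefore no further finding. Among the 587 genes that rose, GA3 24 h replicate 3 was the GA3 library nearest to the untreated range in 398, and untreated replicate 3 was the untreated library nearest to the GA3 range in 87.

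The number of calls depended on single libraries. It was 293, 200 and 1024 without GA3 24 h replicates 1, 2 and 3, and 1384, 323 and 6 without untreated replicates 1, 2 and 3. All 6 genes called without untreated replicate 3 rose, among them PSK5 and BGLU40. A fit of the 6 libraries alone called 0 genes with edgeR, where 4108 had an unadjusted p under 0.05, whereas the fit of all 14 libraries by limma-voom called 821 and that by DESeq2 called 2516. None of the 114 called genes named below changed sign when a library was left out. The lack of overlap in 983 of the 989 called genes nearly fixed that outcome beforehand.

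**Figure D1:**
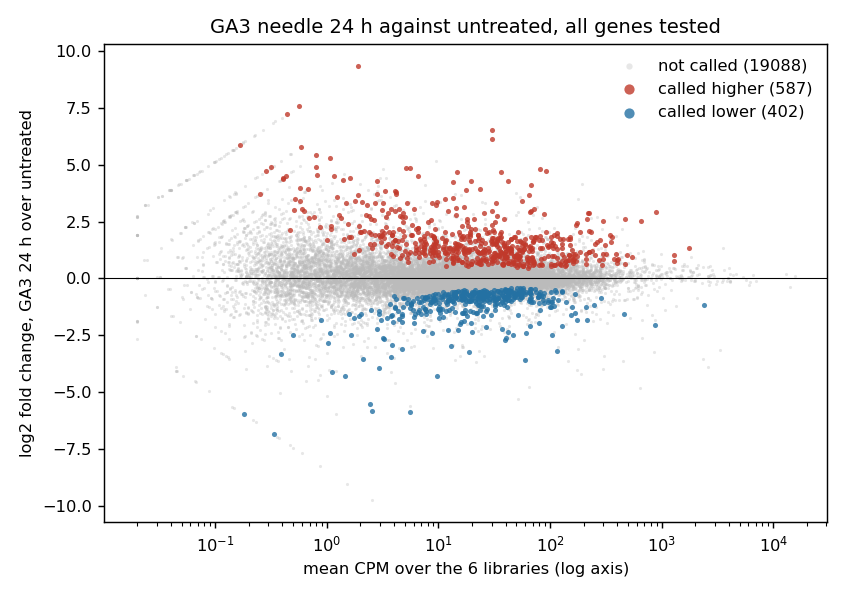
Log2 fold change of GA3 24 h over untreated (y axis) against mean CPM of the 6 libraries (x axis, log scale, with levels under 0.02 drawn at 0.02) for the 20077 genes tested. Red points are the 587 genes called higher, blue points the 402 called lower, and grey points the rest.

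The largest rises among genes with a symbol, whose groups did not overlap and whose higher group averaged 5 CPM or more, took in low-sulfur genes, transporters and stress genes. NIG1, a bHLH transcription factor gene named for its response to salt, measured 0.487, 0.444 and 0.053 CPM in the untreated libraries and 17.9, 9.39 and 2.16 CPM after GA3 (log2 fold change 4.84 ± 1.19 SE, adjusted p = 0.0405). SDI1, which in Arabidopsis restrains glucosinolate synthesis when sulfur is short, went from 7.97, 5.1 and 3.5 to 111, 286 and 76.7 CPM (4.83 ± 0.82, adjusted p = 0.0132). TBL26, of the TRICHOME BIREFRINGENCE-LIKE family of wall polysaccharide acetyltransferases, went from 3.01, 8.48 and 8.33 to 270, 180 and 79 CPM (4.74 ± 0.99, adjusted p = 0.023). Genes were taken for this group only where the libraries of the 2 groups did not overlap, so that separation is no finding, and replicate 3 was the lowest GA3 library in these 3 genes. GOLS2, which makes the galactinol used for raffinose sugars, had 79.3, 28.5 and 3.6 CPM against 2.52, 1.42 and 1.8 untreated (4.27 ± 0.84). The ammonium transporter gene AMT1;2 had 147, 66.1 and 25 CPM against 3.98, 5.59 and 2.81 (4.26 ± 0.81). MES9, a methyl esterase gene, had 8.79, 3.73 and 6.14 CPM against 0.266, 0.266 and 0.796 (3.83 ± 0.85), and LEA3 had 191, 124 and 43.5 against 7.66, 13.6 and 6.89 (3.67 ± 0.5). WRKY62, a defence-related transcription factor gene, had 14.7, 5.04 and 3.26 CPM against 1.11, 0 and 0.477 (3.84 ± 0.93), with 1 untreated library at 0. The other rises of this size were the wall peroxidase gene PRX52 and LSU1, LSU2 and LSU3, given with their groups below. Of these 12 calls, 5, 6 and 12 held without GA3 24 h replicates 1, 2 and 3 and 10, 5 and 0 without untreated replicates 1, 2 and 3, with adjusted p up to 0.155. With limma-voom on all libraries 5 held, and NIG1, LSU1, GOLS2, AMT1;2, LSU3, WRKY62 and MES9 did not. Without GA3 24 h replicate 1 the log2 fold change was 4.08 for NIG1, 3.06 for GOLS2, 3.46 for AMT1;2 and 2.96 for WRKY62. SDI1 came to 4.08 without GA3 24 h replicate 2, and MES9 to 4.52 without untreated replicate 3. Without untreated replicate 1, LSU2 came to 4.74 and WRKY62 to 5.04, and without untreated replicate 2, WRKY62 came to 3.25.

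Among genes with a symbol and 5 CPM or more in the higher group, the largest falls held genes of hormone perception, transport and development. PYL6, an abscisic acid receptor gene, measured 21.5, 9.41 and 24.7 CPM in the untreated libraries and 0.279, 1.47 and 1.1 CPM after GA3 (-4.29 ± 0.86 SE, adjusted p = 0.0208). The auxin transporter gene ABCB21 fell from 109, 214 and 299 to 7.02, 37.3 and 22.9 CPM (-3.21 ± 0.75), and ABCG42, of the pleiotropic drug resistance transporters, from 79.2, 81.9 and 149 to 13.7, 29.3 and 15.6 CPM (-2.4 ± 0.47). SPL4, an age-pathway flowering regulator, fell from 8.94, 10.9 and 5.73 to 0.558, 1.26 and 1.15 CPM (-3.11 ± 0.48, adjusted p = 0.0109). These falls too were taken only from genes whose groups did not overlap. SLAH2, a nitrate channel gene, had 1.16, 2.99 and 4.61 CPM against 14.5, 16.2 and 38.2 (-2.97 ± 0.62), and SOS3, a calcium sensor of salt tolerance, 0.512, 1.26 and 0.864 against 2.43, 7.1 and 10.8 (-2.95 ± 0.69). RL5 and RL6, close relatives in the RAD-like MYB family, fell together, RL5 by 2.63 ± 0.54 and RL6 by 2.67 ± 0.6 on the log2 scale. The ubiquitin ligase gene XBAT31 had 29.4, 35.6 and 28.5 CPM against 125, 153 and 251 (-2.5 ± 0.38). The zinc finger genes OZF2 and IDD2 fell by 2.61 ± 0.57 and 2.4 ± 0.46, and UBC17, of the ubiquitin-conjugating enzymes, by 3.44 ± 0.76. Of these 12 calls, 2, 5 and 7 held without GA3 24 h replicates 1, 2 and 3 and 12, 6 and 0 without untreated replicates 1, 2 and 3, with adjusted p up to 0.132. Without GA3 24 h replicate 2 the log2 fold change was -4.08 for UBC17 and -3.96 for RL6.

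**Figure D2:**
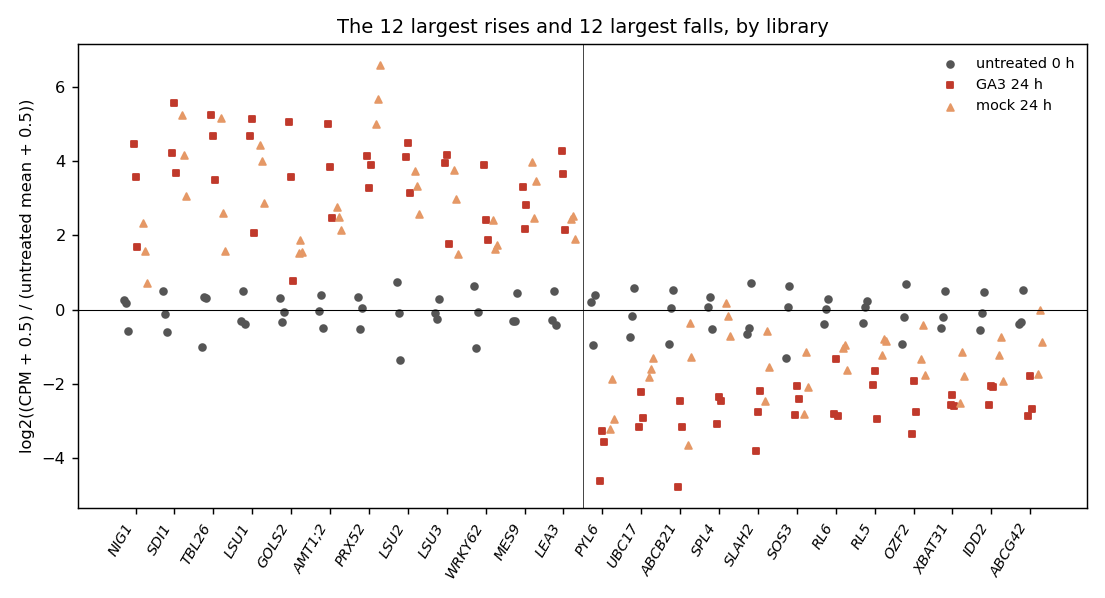
Each point is a library's log2 level relative to the untreated mean (y axis, with 0.5 CPM added to both). Genes are the 12 largest rises (left of the line) and 12 largest falls (right) among those with a symbol. Untreated libraries are grey, GA3 24 h libraries red and mock 24 h libraries orange. For PRX52 the mock libraries, at 58.8, 95.6 and 179 CPM, lie above the GA3 libraries, and for SPL4 they lie with the untreated ones.

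Among called genes with a symbol, the smallest p-values belonged to genes with tight replicates. PSK5, which encodes a precursor of the growth peptide phytosulfokine, had 6.15, 7.01 and 8.22 CPM untreated and 34.2, 32.8 and 29.8 CPM after GA3 (2.18 ± 0.16 SE, adjusted p = 0.000229). The beta-glucosidase gene BGLU40 went from 36.2, 27.1 and 24.4 to 74.1, 91 and 92.7 CPM (1.55 ± 0.17, adjusted p = 0.00353). OPT7, an oligopeptide transporter gene, went from 40.2, 37.2 and 35.6 to 132, 142 and 93.9 CPM (1.7 ± 0.21), and COR413IM1, for a chloroplast inner-membrane protein of cold response, from 15, 12.8 and 15.1 to 43, 46 and 45.6 CPM (1.65 ± 0.21). In each of these genes all 3 GA3 libraries lay above the untreated ones, a separation found in nearly all called genes. Of the falls, the ethylene pathway kinase gene CTR1 went from 112, 128 and 146 to 64.5, 57.9 and 64.1 CPM (-1.05 ± 0.15, adjusted p = 0.0109). LOG8, a cytokinin-activating enzyme gene, fell from 42.6, 42.6 and 47.4 to 26.8, 21.6 and 21.4 CPM (-0.92 ± 0.14), and DGK7, a diacylglycerol kinase gene, from 42.7, 51.7 and 54 to 25.4, 26 and 24.6 CPM (-0.97 ± 0.14). DRT102 fell by 0.9 ± 0.12. With XERICO and APR2, described below, these make 10 genes, of which 10, 10 and 10 held without GA3 24 h replicates 1, 2 and 3 and 10, 10 and 2 without untreated replicates 1, 2 and 3, with adjusted p up to 0.0603.

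The most abundant called genes with a symbol are given next. CAT2, the main leaf catalase of photorespiration, rose from 1078, 1089 and 800 to 3450, 2411 and 1699 CPM (1.35 ± 0.29 SE). GAPC2, a cytosolic glycolysis enzyme, rose from 957, 846 and 749 to 1989, 1725 and 1543 CPM (1.04 ± 0.17). The glutathione transferase gene GSTF9 rose from 288, 434 and 397 to 786, 659 and 720 CPM (0.95 ± 0.23). In these genes the GA3 libraries all lay above the untreated ones, a separation found in nearly all called genes. UBQ10, a polyubiquitin gene often used as a reference in qPCR, fell from 3182, 3425 and 3396 to 1539, 1512 and 1382 CPM (-1.17 ± 0.2, adjusted p = 0.0128). AST91, of the sulfate transporter family, fell from 132, 281 and 400 to 94.5, 63 and 69.7 CPM (-1.84 ± 0.38), and the cytochrome P450 gene CYP71B7 from 136, 227 and 339 to 66.5, 96.3 and 66.6 CPM (-1.61 ± 0.33). ACA.l, from 225, 211 and 317 to 44.5, 127 and 87.5 CPM, fell by 1.54 ± 0.39. Together with APR2, PIP1B and CER6 these were 10 calls, of which 3, 3 and 7 held without GA3 24 h replicates 1, 2 and 3 and 9, 3 and 0 without untreated replicates 1, 2 and 3, with adjusted p up to 0.164.

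Enzymes of gibberellin synthesis gave 1 call among 8 genes tested, a fall, with a list median of -0.29, where 2% of all genes tested fell. The gene named GA3 (AT5G25900, chr5:9035817-9038423 on the plus strand), which encodes ent-kaurene oxidase and is distinct from the hormone, measured 22.5, 21.7 and 34 CPM untreated and 13.4, 13.8 and 14.7 CPM after the needle (-0.9 ± 0.22 SE, adjusted p = 0.0381). The 2 groups did not overlap, as in nearly all called genes. GA3OX1, whose product makes the bioactive form in the last step, measured 1.99, 2.35 and 1.17 CPM untreated and 0, 0.262 and 0.288 CPM at 24 h (-3.3 ± 0.92), without passing the threshold (adjusted p = 0.0598). Its relative GA3OX2 had 0, 0.488 and 0.212 CPM untreated and 3.26, 2.62 and 0.624 CPM at 24 h (3.18 ± 0.99, adjusted p = 0.0855). GA20OX1, of the step before, had 0.797, 1.51 and 0.689 and 0.744, 0.262 and 0.24 CPM (adjusted p = 0.402). GA20OX2, too low to be tested, had 11 counts over the untreated libraries and 0 over the GA3 ones, 3.52-fold lower with 3 counts put in place of 0. The early enzymes GA1, GA2, KAO1 and KAO2 had adjusted p of 0.409, 0.601, 0.451 and 0.439. GA20OX3, GA20OX4, GA20OX5 and GA3OX3 had 0 counts in all 6 libraries, and GA3OX4 had 0 untreated and 2 after GA3.

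Inactivating enzymes gave 1 call among 4 genes tested, a rise, where 2.92% of all genes tested rose. GAMT2, a methyltransferase that inactivates gibberellins, had 4 counts over the untreated libraries and 98 over the GA3 libraries, or 0, 0.178 and 0 CPM and 2.51, 0.997 and 1.2 CPM (4.55 ± 1.15 SE, adjusted p = 0.0449). GA2OX1, whose enzyme also inactivates the hormone, had 0.133, 0 and 0.106 CPM untreated and 2.05, 0.945 and 0.528 CPM after GA3 (adjusted p = 0.0794). GA2OX2 had 2.97, 2.35 and 1.27 and 4.14, 6.3 and 7.68 CPM (adjusted p = 0.153). The GA2OX6 libraries at 24 h, at 3.07, 2.62 and 8.73 CPM, overlapped the untreated 3.67, 3.55 and 2.81 CPM (adjusted p = 0.456), while the 3 h libraries were at 49.5, 47.4 and 73.5 CPM. GA2OX8, untested, had 15 counts untreated and 0 after GA3, 4.8-fold lower with 3 counts put in place of 0. ELA1, a cytochrome P450 of gibberellin inactivation, had 0 and 6 counts, 2.08-fold higher on the same footing. GA2OX3 had 18 and 7 counts and GA2OX4 had 1 and 0, while GA2OX7, GAMT1 and CYP714A2 had 0 in all 6 libraries. Of the GA3 and GAMT2 calls, 0, 0 and 0 held without GA3 24 h replicates 1, 2 and 3 and 1, 0 and 0 without untreated replicates 1, 2 and 3, with adjusted p up to 0.16, and the GAMT2 log2 fold change was 8.07 without untreated replicate 2, the library that holds its untreated counts. Both calls were also lost with limma-voom, with adjusted p up to 0.0875.

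Perception and signalling genes gave 2 calls among 11 tested, both falls, against 2% of all genes tested. GID1B (AT3G63010), 1 of 3 receptor genes, measured 16.5, 8.39 and 11.1 CPM untreated and 3.49, 1.21 and 2.5 CPM after GA3 (-2.32 ± 0.44 SE, adjusted p = 0.0181). GID1A measured 20.5, 21.2 and 17.9 and 11.2, 11.8 and 13.1 CPM without overlap (-0.72 ± 0.21, adjusted p = 0.0716), and GID1C 15.7, 14.8 and 15.1 and 11, 9.24 and 13.5 CPM (adjusted p = 0.231). SPY, an O-fucosyltransferase that modifies DELLA proteins, fell from 52.8, 48.7 and 61.3 to 34.6, 31 and 33.3 CPM (-0.72 ± 0.17, adjusted p = 0.0347). The DELLA genes did not pass the threshold, with adjusted p of 0.261 for GAI, 0.186 for RGA, 0.356 for RGL1, 0.215 for RGL2 and 0.841 for RGL3. RGA had 46.9, 60.3 and 62 CPM untreated and 103, 91.6 and 63.3 CPM after GA3. Its groups did not overlap, nor did those of 27.9% of all genes tested, so that separation is no finding. RGL2 stood at 22.4, 1.94 and 2.98 CPM at 24 h against 2.12, 2.4 and 1.06, with 1 GA3 library far above the other 2. SLY1 had 11.9, 9.41 and 10 and 6.32, 8.24 and 8.16 CPM (adjusted p = 0.12), its untested relative SNE had 2 and 8 counts (ratio 4.17, 95% counting interval 0.832 to 40.3), and SEC, an O-GlcNAc transferase that also modifies DELLAs, 124, 101 and 99.2 and 142, 111 and 128 (adjusted p = 0.466).

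Genes that DELLA proteins induce gave 2 calls among 6 tested, both falls, and a median of -1.29, against 2% of all genes tested called lower and a median of 0.02. XERICO (AT2G04240), which raises abscisic acid levels, went from 14.4, 13.6 and 16 to 5.72, 5.19 and 5.95 CPM (-1.38 ± 0.21 SE, adjusted p = 0.0109), and the other call was GID1B. The regulator gene SCL3 had 30.9, 8.25 and 5.99 and 10.2, 4.51 and 5.04 CPM (adjusted p = 0.258) and WRKY27 2.61, 1.42 and 1.59 and 11.8, 4.36 and 2.54 (adjusted p = 0.0751). In the GASA family of small gibberellin-regulated peptides 1 of 6 tested genes was called. GASA14 fell from 88.8, 51.7 and 71.4 to 5.07, 15.1 and 21.4 CPM (-2.35 ± 0.56, adjusted p = 0.0346), while GASA1 had 655, 387 and 248 and 107, 78.1 and 191 CPM (adjusted p = 0.123). GASA4, GASA5 and GASA6 had adjusted p of 0.57, 0.4 and 0.931. Of the calls for XERICO, GID1B, SPY and GASA14, 2, 1 and 3 held without GA3 24 h replicates 1, 2 and 3 and 3, 2 and 0 without untreated replicates 1, 2 and 3, with adjusted p up to 0.147.

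**Figure D3:**
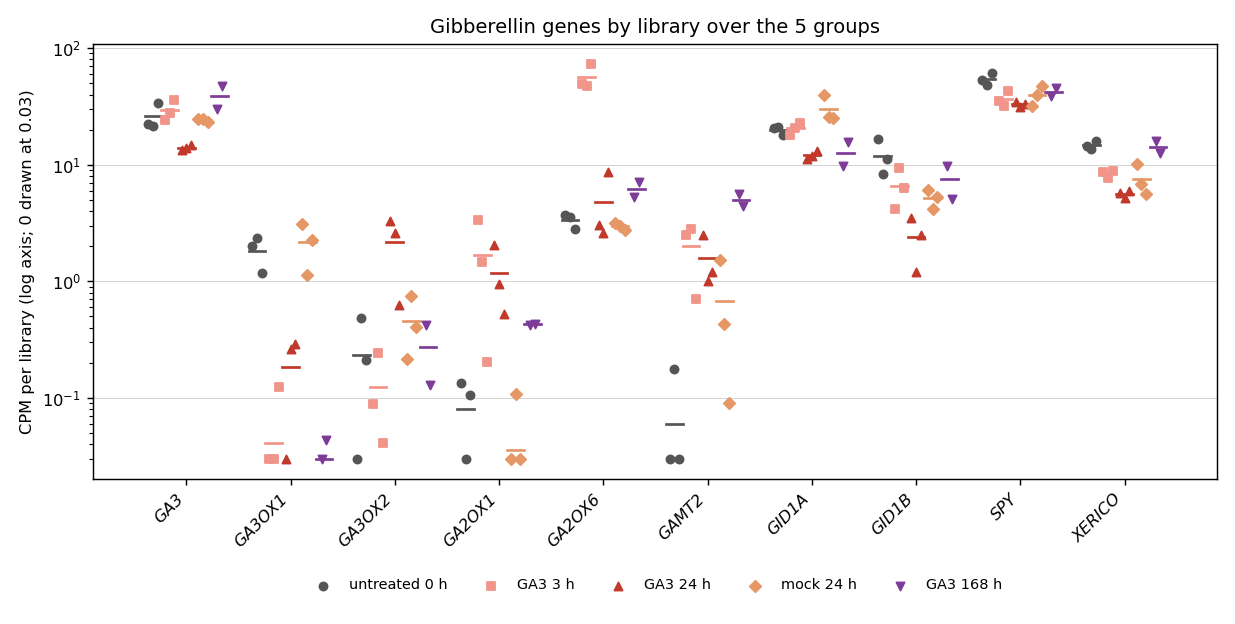
CPM per library (y axis, log scale, with 0 drawn at 0.03) for 10 gibberellin genes in untreated, GA3 3 h, GA3 24 h, mock 24 h and GA3 168 h leaves, with short lines for group means. GA2OX6 stands at 49.5, 47.4 and 73.5 CPM at 3 h and 3.07, 2.62 and 8.73 CPM at 24 h, and the GID1B libraries at 24 h are below all untreated ones.

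Among genes induced when sulfate is scarce, every call was a rise. Of 18 tested, 10 were called higher and 0 lower, with a median log2 fold change of 2.78, against 2.92% of all tested genes called higher and a median of 0.02. This list, like the other gene lists here, was chosen with earlier results of these data known. Such shares and medians are therefore described only and are no test of enrichment. Plants take up sulfate and reduce it through the APR enzymes to sulfide for cysteine. When supply is low, the LSU proteins and SDI1 rise and sulfur is redirected to primary needs. LSU1 measured 2.12, 4.17 and 2.02 CPM untreated and 83.8, 115 and 13.1 CPM after GA3 (4.67 ± 0.89 SE, adjusted p = 0.0181). LSU2 measured 12.7, 6.83 and 2.6 and 137, 177 and 69.1 CPM (4.11 ± 0.65), and LSU3 2.08, 1.78 and 2.81 and 41.5, 48.7 and 8.73 CPM (3.89 ± 0.79). For each of these genes GA3 replicate 3 was the lowest GA3 library. LSU4 measured 2.57, 1.11 and 0.318 and 11.4, 11.8 and 3.07 CPM (2.7 ± 0.68). The reductase genes rose too: APR1 from 42.7, 61.8 and 52.7 to 374, 521 and 259 CPM (2.88 ± 0.38), APR2 from 204, 225 and 155 to 1261, 1245 and 820 CPM (2.51 ± 0.29, adjusted p = 0.00548) and APR3 from 44, 66.6 and 70.6 to 325, 567 and 206 CPM (2.6 ± 0.48). GGCT2;1, which recycles glutathione, rose from 2.74, 3.24 and 4.4 to 26.2, 52.2 and 12.9 CPM (3.14 ± 0.72), and the serine hydroxymethyltransferase gene SHM7 from 60.1, 50.1 and 51.3 to 148, 614 and 414 CPM (2.86 ± 0.74). The mock needle libraries stood at 70.3, 51.9 and 23.4 CPM for LSU1 and 657, 784 and 536 CPM for APR2. Of the other tested members, SULTR1;2, a root sulfate uptake transporter gene, had adjusted p of 0.144, SULTR4;2 of 0.139 and BGLU28 of 0.057. The ATP sulfurylase genes APS1 and APS3 had 0.436 and 0.308, and SLIM1, the transcription factor of the sulfur response, 0.256. Of the 10 calls, 6, 4 and 9 held without GA3 24 h replicates 1, 2 and 3 and 8, 5 and 0 without untreated replicates 1, 2 and 3, with adjusted p up to 0.166. With limma-voom on all libraries 5 held, and LSU1, LSU3, LSU4, SHM7 and GGCT2;1 did not. Without GA3 24 h replicate 2 the log2 fold change was 4.08 for SDI1 and 2.5 for GGCT2;1, and without untreated replicate 1 it was 4.74 for LSU2 and 3.56 for LSU4.

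**Figure D4:**
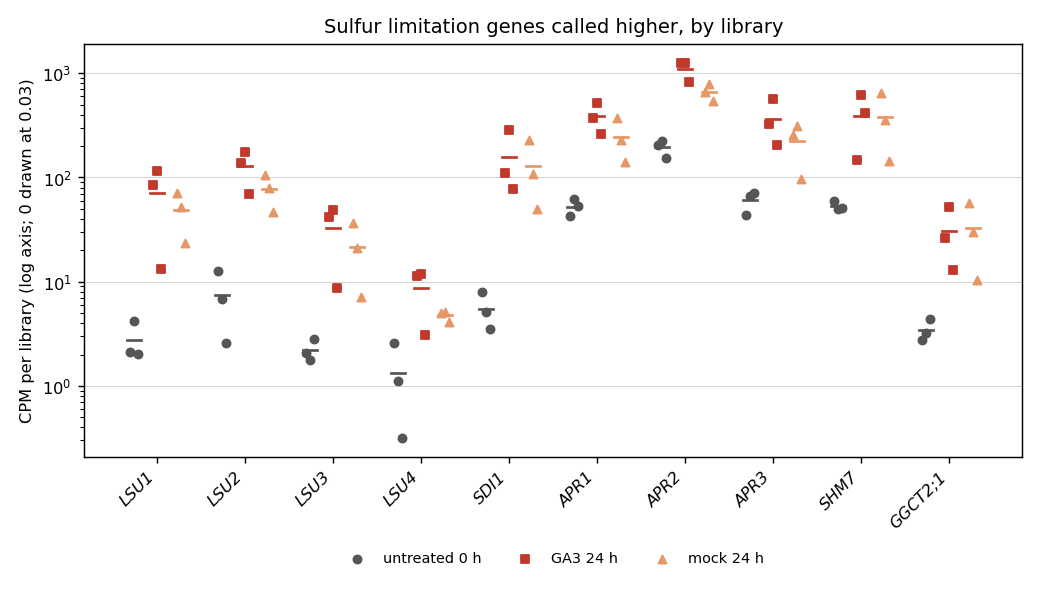
CPM per library (y axis, log scale) of the 10 sulfur limitation genes called higher, in untreated (grey), GA3 24 h (red) and mock 24 h (orange) leaves, with short lines for group means. The GA3 libraries of each gene lie above the untreated ones, a separation found in nearly all called genes, and the mock libraries of LSU1 are at 70.3, 51.9 and 23.4 CPM.

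The 3 called sulfur genes whose 250 bases before the start hold GAGAC, the core of the sulfur-responsive element, are shown with that core in capitals. It was searched on both strands and reads GTCTC on the opposite strand. The core was added to the search after the sulfur genes had been seen to rise, and it was found in 3 of the 10 called genes, in 6 of 18 promoters of the list (33.3%) and in 25.4% of the 19969 promoters of tested genes. Sequences run 5′ to 3′ on the gene's strand and come from RefSeq TAIR10.1, at chr5:19807854-19808103 (minus) for SDI1, chr5:8441365-8441614 (minus) for LSU4 and chr5:9164885-9165134 (minus) for GGCT2;1.
SDI1: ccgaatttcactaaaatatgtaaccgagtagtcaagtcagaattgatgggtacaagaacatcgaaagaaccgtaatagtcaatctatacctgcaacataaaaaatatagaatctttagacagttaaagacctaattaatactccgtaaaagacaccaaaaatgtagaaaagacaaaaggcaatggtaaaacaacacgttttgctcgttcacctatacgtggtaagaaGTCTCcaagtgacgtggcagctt
LSU4: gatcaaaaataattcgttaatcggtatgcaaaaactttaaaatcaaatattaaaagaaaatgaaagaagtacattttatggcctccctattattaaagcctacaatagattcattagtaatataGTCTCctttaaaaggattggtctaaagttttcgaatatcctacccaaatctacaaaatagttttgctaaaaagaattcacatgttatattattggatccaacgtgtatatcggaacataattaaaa
GGCT2;1: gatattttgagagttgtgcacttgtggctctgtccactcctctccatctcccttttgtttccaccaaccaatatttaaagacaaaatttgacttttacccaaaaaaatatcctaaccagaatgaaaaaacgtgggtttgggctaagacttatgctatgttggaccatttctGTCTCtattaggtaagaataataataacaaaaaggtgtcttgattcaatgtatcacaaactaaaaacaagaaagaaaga

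Glucosinolate synthesis genes, which build sulfur-rich defence compounds from amino acids, were called in 1 direction. Of 23 tested, 9 were called higher and 0 lower, with a median of 1.32, against 2.92% and 2% of all genes tested and a median of 0.02. MYB29, a regulator of the pathway, measured a mean of 16.1 ± 3.57 (SD of 3) CPM untreated and 71.7, 56.5 and 38.8 CPM after GA3 (1.79 ± 0.33 SE, adjusted p = 0.0179). CYP79F1, of the first committed step of side-chain amino acids, measured 50.5, 211 and 173 and 637, 526 and 455 CPM (1.9 ± 0.44) and CYP79F2 0.929, 3.86 and 2.17 and 17, 8.92 and 6.67 (2.22 ± 0.58). The groups did not overlap in any of these, as in nearly all called genes. SUR1 and UGT74B1 of the core structure rose by 1.17 ± 0.22 and 1.32 ± 0.31 on the log2 scale, the sulfotransferase genes SOT17 and SOT18 by 1.74 ± 0.42 and 1.81 ± 0.39, and the chain elongation genes BAT5 and IPMI2 by 1.63 ± 0.41 and 1.48 ± 0.38. CYP79F1 and CYP79F2 are near copies whose reads can be exchanged. Of the 9 calls, 0, 0 and 7 held without GA3 24 h replicates 1, 2 and 3 and 4, 4 and 0 without untreated replicates 1, 2 and 3, with adjusted p up to 0.177, and CYP79F2 had a log2 fold change of 2.82 without untreated replicate 2.

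Nitrogen and amino acid genes gave 2 rises and 1 fall among 22 tested, with a median of 0.25, beside 2.92% rising and 2% falling among all genes tested. AAP5 went from 29.6, 31.5 and 21.2 to 91.4, 115 and 66.8 CPM (1.73 ± 0.25 SE, adjusted p = 0.0105) and AAP3 from 0.664, 0.666 and 0.318 to 4.65, 3.1 and 3.98 CPM (2.8 ± 0.55, adjusted p = 0.0191). Both encode amino acid importers. GDH1, a glutamate dehydrogenase gene, fell from 92, 175 and 362 to 30.3, 65.5 and 51.7 CPM (-2.09 ± 0.46), and AAP6 had an adjusted p of 0.146. Of the 3 calls, 1, 2 and 2 held without GA3 24 h replicates 1, 2 and 3 and 3, 1 and 0 without untreated replicates 1, 2 and 3, with adjusted p up to 0.109, and GDH1 fell by 1.44 without untreated replicate 3.

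Starch and sugar genes gave 6 rises and 0 falls among 27 tested, with a median of 0.51, where 2.92% of all genes tested rose and 2% fell. GBSS1, which makes amylose, went from 61.6, 108 and 89.3 to 484, 393 and 209 CPM (2.07 ± 0.47 SE, adjusted p = 0.0289). Of 11 starch breakdown genes tested 4 rose: SEX1, a glucan water dikinase, from 86.4, 115 and 89.5 to 151, 151 and 146 CPM (0.62 ± 0.16), DPE2 from 54.5, 62 and 68.5 to 119, 130 and 96.8 CPM (0.9 ± 0.15), PHS2 from 22.6, 40.6 and 32.5 to 69.2, 68.9 and 50.9 CPM (0.98 ± 0.25) and the beta-amylase family gene BAM6 from 10.1, 18.1 and 13.7 to 65.7, 53.8 and 24.3 CPM (1.78 ± 0.36). The other 7 had adjusted p of 0.067 to 0.874, with BAM4 at a log2 fold change of -0.91. The sucrose exporter gene SWEET13 rose from 2.04, 3.46 and 1.96 to 22.8, 16.7 and 4.94 CPM (2.57 ± 0.54). LSF2, a starch phosphatase gene outside the list, rose from 24.6, 30.8 and 23.4 to 52.7, 52.5 and 52.4 CPM (1.0 ± 0.15, adjusted p = 0.0109). Of these 7 calls, 2, 1 and 6 held without GA3 24 h replicates 1, 2 and 3 and 4, 3 and 0 without untreated replicates 1, 2 and 3, with adjusted p up to 0.18.

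Clock genes gave 2 rises among 13 morning genes tested and 1 rise among 13 evening genes, with medians of 0.27 and 0.0, against 2.92% of all genes tested called higher. Clock transcripts swing over the day, and the hour of harvest was not given. CCA1, a morning MYB factor, went from 106, 115 and 103 to 293, 224 and 168 CPM (1.08 ± 0.23 SE, adjusted p = 0.0258), while its partner LHY had 135, 129 and 114 and 309, 220 and 169 CPM (adjusted p = 0.0535). LNK1, a coactivator gene, went from 59.9, 56.4 and 45 to 209, 158 and 106 CPM (1.55 ± 0.24, adjusted p = 0.0109). GI, an evening gene of the flowering pathway, went from 6.59, 6.08 and 5.04 to 55.3, 37.8 and 13.8 CPM (2.59 ± 0.4, adjusted p = 0.0109), with replicate 3 the lowest GA3 library. PRR9 had 3.45, 4.17 and 3.82 and 56.1, 12.9 and 5.47 CPM (adjusted p = 0.0573), ELF3 17.9, 17.8 and 15.3 and 7.49, 7.5 and 12.1 (adjusted p = 0.0709) and TOC1 36.5, 17.1 and 19.1 and 13.8, 13.1 and 16.1 (adjusted p = 0.118). Of the calls for CCA1, LNK1 and GI, 2, 2 and 3 held without GA3 24 h replicates 1, 2 and 3 and 3, 2 and 0 without untreated replicates 1, 2 and 3, with adjusted p up to 0.111. G-boxes, CACGTG on either strand, were in 7 of 13 morning promoters (53.8%), in 11.4% of the 587 promoters of genes called higher and in 7.43% of all 19969. Of the called clock genes, CCA1 had 1 match, and LNK1 and GI had 0. The other morning genes with a match, LHY, PRR9, PRR7, LNK3, RVE1 and RVE2, were not called. Other motifs were searched too. The ABRE core, ACGTGNC, was in 8 of 13 morning promoters (61.5%), in 12.9% of those called higher and in 9.56% of all. The evening element, AAAATATCT, was in 6 of 13 evening and 1 of 13 morning promoters, and in 2.46% of all. The W-box, TTGACC or TTGACT, was in 3 of 13 morning and 1 of 13 evening promoters, and in 28.5% of all. Links between these motifs or the G-box and the rises were not tested. The CCA1 promoter, chr2:19245341-19245590 on the plus strand, is shown with its G-box in capitals.
CCA1: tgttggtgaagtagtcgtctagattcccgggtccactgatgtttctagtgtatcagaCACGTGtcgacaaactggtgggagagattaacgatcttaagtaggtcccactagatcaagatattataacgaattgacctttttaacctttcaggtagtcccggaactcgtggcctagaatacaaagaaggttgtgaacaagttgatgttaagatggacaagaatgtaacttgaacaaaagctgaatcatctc

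Flowering genes gave 2 rises and 1 fall among 15 tested genes that promote flowering, and 0 calls among 19 that repress it, where 4.93% of all genes tested were called. FT (AT1G65480, chr1:24331373-24333999, plus strand), the gene that carries the ft-10 lesion, measured 4.65, 4.35 and 3.39 CPM untreated and 9.16, 12.9 and 20.5 CPM after GA3 (1.78 ± 0.41 SE, adjusted p = 0.0328). Reads on FT were counted in all 6 libraries, and the position of the lesion relative to them was not analysed here. The mock needle libraries stood at 15.8, 30.4 and 56.3 CPM and the 3 h GA3 libraries at 43, 37.1 and 50.8 CPM. Besides GI and SPL4, given above, AGL24 had 19.7, 28.9 and 25.2 and 32.3, 41.8 and 38.4 CPM (adjusted p = 0.0663). The repressor genes CDF1 and SNZ had adjusted p of 0.0548 and 0.0725. With limma-voom on all libraries the FT call was lost (adjusted p = 0.102), and those of GI and SPL4 were kept. SPL4 kept its call in 5 of the fits without 1 library. Of the calls for FT, GI and SPL4, 3, 2 and 2 held without GA3 24 h replicates 1, 2 and 3 and 3, 2 and 0 without untreated replicates 1, 2 and 3, with adjusted p up to 0.138.

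Abscisic acid genes gave 3 rises among 23 response genes tested, with a median of 1.25, and 3 rises and 2 falls among 26 genes of perception and metabolism, beside 2.92% higher and 2% lower among all genes tested. COR413-PM1, for a cold-regulated plasma membrane protein, went from 40.5, 37.4 and 40.4 to 104, 94.7 and 88.4 CPM (1.28 ± 0.24 SE, adjusted p = 0.0182) and the calcium-binding RD20 from 134, 71.9 and 60.5 to 648, 375 and 501 CPM (2.52 ± 0.6). The third call was GOLS2. P5CS1, of proline synthesis, had 60.5, 142 and 116 and 571, 575 and 293 CPM (adjusted p = 0.0605). Of 8 phosphatase genes of the pathway's negative arm tested 2 rose, AHG3 from 76.6, 39.1 and 35.3 to 148, 241 and 158 CPM (1.86 ± 0.39) and HAI2 from 0.531, 0.222 and 0.053 to 5.07, 1.42 and 4.08 CPM (3.65 ± 0.81), and the other 6 had adjusted p of 0.0765 to 0.738. CYP707A2, which breaks the hormone down, rose from 0.398, 0.666 and 0 to a mean of 10.7 ± 11.8 (SD of 3) CPM (4.85 ± 1.17), with groups that overlap. Of 9 receptor genes tested 2 fell, PYL8 from 105, 103 and 116 to 53, 48.6 and 51.5 CPM (-1.08 ± 0.17, adjusted p = 0.0121) and PYL6 as given above, and the other 7 had adjusted p of 0.0779 to 0.891. Of the 8 calls, 2, 3 and 7 held without GA3 24 h replicates 1, 2 and 3 and 7, 2 and 0 without untreated replicates 1, 2 and 3, with adjusted p up to 0.15. Without GA3 24 h replicate 1, GOLS2 had a log2 fold change of 3.06 and CYP707A2 of 3.5. Without untreated replicate 1, HAI2 had 4.56, and without untreated replicate 2, CYP707A2 had 5.62.

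Defence and wound genes were called at about the share of all genes tested, 4.93%. There was 1 rise among 15 jasmonate synthesis genes, 0 calls among 29 genes of jasmonate repression, breakdown and output, 2 rises among 23 salicylic acid genes, 0 calls among 28 wound and touch genes and 2 falls among 20 ethylene genes. JAR1, which conjugates jasmonate to isoleucine, went from 47.1, 32 and 30.8 to 98.4, 55.7 and 60.8 CPM (0.97 ± 0.23 SE, adjusted p = 0.0339). EARLI1, of systemic defence priming, went from 10.8, 17 and 18.3 to 72, 119 and 157 CPM (2.92 ± 0.64), with mock libraries at 143, 302 and 772 CPM. Its neighbour AZI1 had 6.51, 2.17 and 1.96 and 7.07, 18.9 and 20.5 CPM (adjusted p = 0.0854). EBF2, an F-box gene of the ethylene pathway, fell from 169, 129 and 137 to 54.7, 52.2 and 77.2 CPM (-1.24 ± 0.24). The touch gene TCH2 had 28.1, 33.5 and 23.5 and 71.2, 225 and 95.3 CPM (adjusted p = 0.0545), JAZ3 32.6, 30.5 and 34 and 40.1, 80.3 and 91 (adjusted p = 0.0867) and CYP94B3, a jasmonate oxidase gene, 0.266, 0 and 1.33 and 4.84, 0.42 and 49.9 (adjusted p = 0.133). Medians were 0.38 for jasmonate outputs and 1.13 for wound and touch genes. Of the calls for JAR1, EARLI1, WRKY62, CTR1 and EBF2, 2, 1 and 4 held without GA3 24 h replicates 1, 2 and 3 and 4, 2 and 0 without untreated replicates 1, 2 and 3, with adjusted p up to 0.149. WRKY62 had log2 fold changes of 2.96 without GA3 24 h replicate 1, 5.04 without untreated replicate 1 and 3.25 without untreated replicate 2.

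Phenylpropanoid genes gave 7 rises and 0 falls among 28 tested, with a median of 0.62, where 2.92% of all genes tested rose and 2% fell. The route leads from phenylalanine to lignin monomers and flavonoids. C4H, its hydroxylase, went from 111, 102 and 105 to 197, 174 and 188 CPM (0.81 ± 0.18 SE, adjusted p = 0.0256) and 4CL2 from 6.02, 5.33 and 5.14 to 14.4, 11.8 and 11 CPM (1.17 ± 0.21). For monolignols, CCR1 went from 142, 106 and 102 to 286, 229 and 172 CPM (0.97 ± 0.2), CCR2 from 2.97, 1.15 and 2.76 to 11.5, 9.66 and 9.79 CPM (2.17 ± 0.38) and CAD5 from 39.4, 47.4 and 53.9 to 114, 91 and 147 CPM (1.32 ± 0.27). PRX52, a peroxidase of lignin formation, went from 1.86, 0.799 and 1.43 to a mean of 25.7 ± 7.56 (SD of 3) CPM (4.23 ± 0.61, adjusted p = 0.0109). MYB75, the anthocyanin regulator, had 3 counts over the untreated libraries and 128 over the GA3 libraries, a ratio of 44.5 with a 95% counting interval of 14.9 to 218, which covers counting error only. The mock libraries held 320 counts of MYB75, most of them in 1 library at 14.4 CPM. The MYB75 call was lost with limma-voom on all libraries (adjusted p = 0.227), and DESeq2 did not call it either. Of the 7 calls, 2, 4 and 7 held without GA3 24 h replicates 1, 2 and 3 and 6, 2 and 0 without untreated replicates 1, 2 and 3, with adjusted p up to 0.158, and the fitted log2 fold change of MYB75 moved from 5.31 to 6.11 without untreated replicate 1, a fitted value that depends on the prior count at so few reads.

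Growth lists are read against the 2.92% of all genes tested that rose and the 2% that fell. Of 21 expansin genes, which loosen walls, 2 rose, EXPA3 from 4.25, 8.65 and 10.4 to 27.1, 41.8 and 35.5 CPM (2.16 ± 0.55 SE, adjusted p = 0.0444) and EXPB1 from 1.46, 0.399 and 0.955 to 3.3, 8.29 and 12 CPM (3.06 ± 0.79). Of 22 xyloglucan endotransglucosylase genes 2 rose, XTH28 from 25.5, 31.3 and 32.1 to 44.7, 47.6 and 45.4 CPM (0.63 ± 0.15) and XTH31 from 2.35, 1.33 and 0.106 to 11.3, 11 and 9.98 CPM (3.07 ± 0.77). Among 19 growth bHLH genes, AIF1, a growth inhibitor, fell from 7.35, 6.57 and 6.63 to 2, 1.89 and 2.02 CPM (-1.8 ± 0.39). None of 20 auxin response genes was called, with IAA6 at 3.32, 2.49 and 1.86 and 3.86, 23.8 and 13.6 CPM (adjusted p = 0.0533). The 31 cell division genes had a median of 0.48, with 26 fits above 0 and 5 below. The 2 called among them, E2F1 and KRP2, fell by 0.87 ± 0.22 and 0.96 ± 0.25 on the log2 scale. Among 16 brassinosteroid genes, the transcription factor gene BES1 rose from 108, 93.1 and 91.4 to 178, 227 and 192 CPM (1.03 ± 0.16), while BRH1 fell from 79.6, 61.2 and 91.9 to 26.3, 20.4 and 30.3 CPM (-1.6 ± 0.25) and the synthesis gene CPD from 128, 127 and 153 to 60.5, 65.5 and 73.3 CPM (-1.03 ± 0.18). Of 17 aquaporin genes, PIP1B rose from 959, 996 and 905 to 1845, 1558 and 1509 CPM (0.78 ± 0.17) and PIP2;5 from 4.91, 4.44 and 4.72 to 11.4, 10.4 and 15.4 CPM (1.4 ± 0.24). Among 11 trichome genes, with a median of 1.0, TTG1 fell from 64.2, 58 and 61.3 to 39.2, 39.6 and 31.5 CPM (-0.73 ± 0.15). Of 8 type-A response regulator genes and 22 arabinogalactan and pectin genes, 0 were called. Of the 13 calls named here, 4, 3 and 7 held without GA3 24 h replicates 1, 2 and 3 and 9, 5 and 0 without untreated replicates 1, 2 and 3, with adjusted p up to 0.168, and XTH31 had 3.84 without untreated replicate 1.

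Photosynthesis, senescence and heat shock lists are read against the 4.93% called among all genes tested. Of 36 light-reaction genes 1 was called, ELIP1, a light-stress protein gene, from 5.8, 6.61 and 6.2 to 40.6, 31.5 and 20.3 CPM (2.31 ± 0.35 SE, adjusted p = 0.0109), and the ferredoxin gene FD1 had an adjusted p of 0.0731. None of 17 Calvin cycle genes and none of 16 chlorophyll synthesis genes was called. Of 9 chlorophyll breakdown genes ACD2 rose by 0.65 ± 0.15, and of 19 senescence genes GSR2, a glutamine synthetase, rose by 0.66 ± 0.17. In the heat shock list of 16 genes, HSP101 rose from 6.15, 3.06 and 3.02 to 21.7, 10.8 and 10.5 CPM (1.81 ± 0.44) and HSFA2 from 0.885, 0 and 0 to 4.37, 2.99 and 2.5 CPM (3.41 ± 0.85). Of these 5 calls, 1, 1 and 4 held without GA3 24 h replicates 1, 2 and 3 and 3, 1 and 0 without untreated replicates 1, 2 and 3, with adjusted p up to 0.161. HSFA2 had log2 fold changes of 9.13 without untreated replicate 1, the only untreated library with reads of it, and 2.82 without untreated replicate 2.

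**Figure D5:**
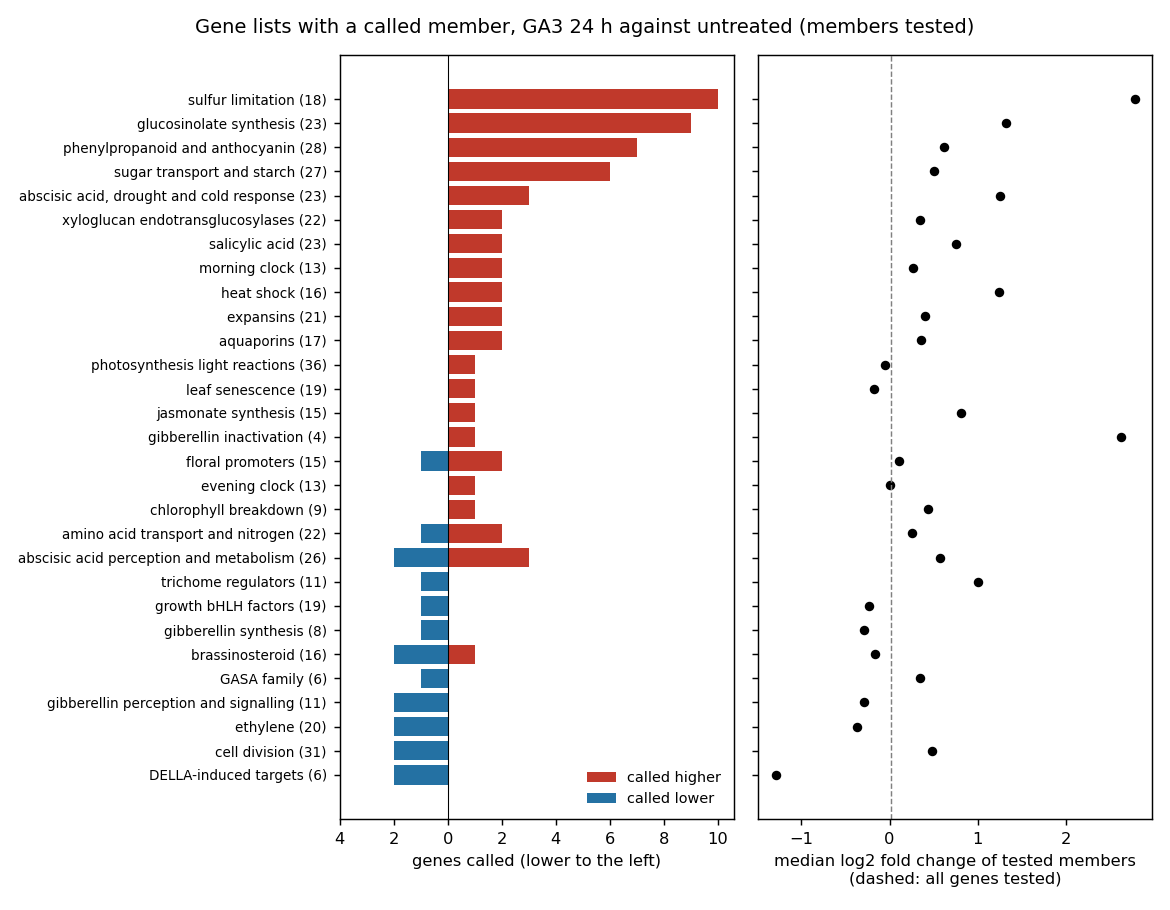
For each list with a called member: left, members called higher (red) or lower (blue, drawn leftward) at 24 h, with the number tested in brackets. Right, the median log2 fold change of the tested members, with a dashed line at the median of all genes tested. Sulfur limitation has the most calls, 10 higher.

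Leaf cell markers were measured alongside. None of 9 guard cell, 16 vascular and 7 mesophyll markers was called, with medians of -0.02, 0.2 and 0.19. Mesophyll markers summed to 38647 to 49030 CPM in the untreated libraries and 42114 to 54144 CPM after GA3. Epidermis and cuticle markers gave 2 falls among 10 tested and a median of -0.83, where 2% of all genes tested fell. After the mock needle the same list had 1 fall against untreated, where 0.169% of all genes fell, and a median of -1.02. These markers summed to 1165 to 1942 CPM untreated, 841 to 1078 CPM after GA3 and 865 to 1228 CPM after mock. CER6, which elongates wax fatty acids, fell from 389, 804 and 861 to 250, 241 and 194 CPM (-1.58 ± 0.31 SE, adjusted p = 0.0196) and the epidermal homeodomain gene ATML1 from 49.7, 62.4 and 73 to 33.2, 34.7 and 37.1 CPM (-0.82 ± 0.18), while CER5 and FDH had adjusted p of 0.0617 and 0.087. By the fits, 8 of the 10 markers lay below 0 and 2 above, CER1 at 0.72 and CER3 at 0.56 (adjusted p = 0.688 and 0.539). PDF2 and KCS1 were at -0.04 and -0.05. The part of these markers in the other results was not tested. Of the 2 calls, 0, 0 and 2 held without GA3 24 h replicates 1, 2 and 3 and 2, 0 and 0 without untreated replicates 1, 2 and 3, with adjusted p up to 0.113. Markers of floral organs, shoot meristem, root, seed and pollen were mostly too low to test (2 of 9, 2 of 7, 3 of 7, 1 of 11 and 1 of 5 tested), and 0 were called.

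The leaves with a mock needle show what the levels were without GA3 at the same time. A direct test of GA3 24 h against the mock needle at 24 h passed 0 of the 20077 genes with edgeR (0% called, 1322 with an unadjusted p under 0.05) and 0 with limma-voom, while DESeq2 passed 50. The mock needle against untreated passed 122 higher and 34 lower genes (0.777% of genes tested), and shares the untreated libraries with the comparison above, so the 2 sets of calls are not independent. Against untreated, the sulfur limitation list had a median of 2.06 with 4 of 18 called higher after the mock needle and 2.78 with 10 of 18 after GA3. The glucosinolate list had medians of 1.14 with 0 of 23 called and 1.32 with 9 of 23, and the phenylpropanoid list 1.1 with 7 of 28 called higher and 0.62 with 7 of 28. Directly against mock, the GA3 medians were 0.19 for the sulfur, 0.25 for the glucosinolate and -0.46 for the phenylpropanoid list. The genes given here are those among the calls with a symbol that had the smallest unadjusted p against mock, given with the difference in log2. ARPN, a plantacyanin gene, had 0.605, 0.367 and 0.528 CPM after GA3, 6.19, 3.82 and 4.28 after mock and 1.68, 3.28 and 3.45 untreated, a difference of -3.23 ± 0.41 SE from mock (adjusted p = 0.0853). SPL4 had 0.558, 1.26 and 1.15 after GA3 and 9.73, 7.47 and 5.04 after mock (-2.9 ± 0.48, adjusted p = 0.317). The GA3 and mock libraries did not overlap in either gene. Both genes were picked for a small p against mock, so that separation is no further finding. AGF2, for an AT-hook protein, had 5.25, 6.93 and 9.31 and 15.2, 23.4 and 24.3 CPM (-1.55 ± 0.36), IAA26, an auxin repressor gene, 30.1, 29.3 and 32.2 and 61.2, 50.1 and 48.7 (-0.8 ± 0.18) and ABCG42 -1.7 ± 0.46. On the higher side, XDH2, a purine oxidase gene, had 6.6, 8.13 and 12.7 CPM after GA3 and 3.33, 3.33 and 3.51 after mock (1.43 ± 0.29, adjusted p = 0.66). BGLU40 had 74.1, 91 and 92.7 and 57.1, 51.3 and 42.6 (0.77 ± 0.17), IAGLU, an auxin glucosyltransferase gene, a mean of 45.1 ± 38.6 (SD of 3) and 12.3, 6.78 and 7.52 (2.35 ± 0.54) and LSF2 52.7, 52.5 and 52.4 and 37.9, 33.3 and 30.5 (0.63 ± 0.15). AAP3 had fewer reads after GA3 than after mock, 4.65, 3.1 and 3.98 against 7.15, 11.9 and 29.7 CPM (-2.06 ± 0.48). GID1A, which was not called against untreated and is given for its p against mock, had 11.2, 11.8 and 13.1 after GA3 and 39.4, 25.9 and 25.4 after mock (-1.33 ± 0.21, adjusted p = 0.317). For the 10 genes called against untreated, 6, 8 and 9 held without GA3 24 h replicates 1, 2 and 3 and 10, 7 and 1 without untreated replicates 1, 2 and 3, with adjusted p up to 0.178, and IAGLU came to 1.88 against untreated without GA3 24 h replicate 1.

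At 3 h after the GA3 needle the levels differed from those at 24 h in 2290 of the 20077 genes (11.4% of genes tested), with 1141 higher at 24 h (5.68%) and 1149 lower, in a comparison that shares the 24 h libraries. Genes named above with small p in that comparison were chosen after their values were seen. AAP3 stood at 24.5, 42.9 and 40.5 CPM at 3 h and 4.65, 3.1 and 3.98 CPM at 24 h, a difference of -3.2 ± 0.5 (adjusted p = 0.00301). CAD5 stood at 571, 582 and 763 and 114, 91 and 147 CPM (-2.45 ± 0.28), COR413-PM1 at 344, 338 and 646 and 104, 94.7 and 88.4 (-2.21 ± 0.25) and PHS2 at 430, 364 and 229 and 69.2, 68.9 and 50.9 (-2.44 ± 0.26), all higher at 3 h. APR2 stood at 329, 418 and 204 and 1261, 1245 and 820 CPM (1.81 ± 0.28, adjusted p = 0.00302), and CAT2 at 887, 847 and 741 and 3450, 2411 and 1699 (1.61 ± 0.29), both higher at 24 h. At 168 h (n = 2), 2067 genes were higher than at 24 h (10.3% of genes tested) and 2789 lower. LSU1 stood at 331 and 533 CPM and SDI1 at 525 and 774 CPM, and BGLU40 at 18.6 and 20.2 CPM.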

How the data were processed

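The authors deposited per-library read counts per gene, with 1 column that ignores strand and 1 for each strand. Reads were aligned with STAR 2.7.7a to TAIR10, per the submitters' processing notes, with an annotation not given in the sources used here. Column 4 was used as raw counts; the opposite-strand column held 4.89% to 5.51% of the assigned reads. The authors called the replicates biological, per the series text; p-values measure the spread between these samples. Counts of all 14 libraries were fitted in 1 model with 1 coefficient per group by the edgeR 4.0.16 quasi-likelihood test (R 4.3.3, TMM, low counts filtered by group), and p-values were adjusted by Benjamini-Hochberg over 20077 genes at 0.05. Shares of reads were compared by exact permutation tests. Alternatives used DESeq2 1.42.0 and limma 3.58.1 (voom), other scalings and filters, and fits without 1 library. The edgeR test was also run on simulated data, and the outcome is not given here. The members of the gene lists and the lists themselves were chosen with earlier results of these data known. Of 836 names in 46 lists, 800 matched the reference, and 715 of 798 distinct genes were tested. Named genes are all members of the gibberellin lists and FT, and called members of each list with others of small p. Rankings of called genes with a symbol added the 12 largest rises and falls, at 5 CPM or more and without overlap. They also added the 5 smallest p, the 5 most abundant and those of the 5 smallest p against mock, per direction. Intervals on ratios of counts (95%) cover counting error only. Where a group had 0 counts, 3 were put in its place and the other count was taken as exact, so those ratios are no bounds. Promoters are the 250 bases before each RefSeq TAIR10.1 start.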

Additional observations from a re-analysis of the deposited data

Results flagged for a closer look

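The level at 24 h after the GA3 needle differed from that at 3 h for 43 of the 114 called genes named above (edgeR quasi-likelihood test, adjusted p under 0.05), and that difference between time points is what marks them. Among all 20077 genes tested, 11.4% differed. The comparison shares the GA3 24 h libraries with the one against untreated, in which the 114 genes were called, so their higher share is no finding. Values are log2 differences, 24 h minus 3 h. The genes higher at 24 h were WRKY62 3.25, EXPB1 3.19, IPMI2 1.90, SWEET13 1.84, APR2 1.81, CAT2 1.61, GBSS1 1.58, GAPC2 1.54, CYP79F1 1.48, OPT7 1.35, LSF2 1.28, ELIP1 1.16, CCA1 1.09, AAP5 0.96, SUR1 0.92, ACD2 0.69, BES1 0.68 and GSR2 0.62. The genes lower at 24 h were AAP3 -3.20, CAD5 -2.45, HSFA2 -2.45, PHS2 -2.44, SLAH2 -2.31, COR413-PM1 -2.21, CCR2 -2.18, IDD2 -2.17, AIF1 -2.03, XBAT31 -1.97, PIP2;5 -1.88, ARPN -1.71, JAR1 -1.68, FT -1.62, GID1B -1.46, SEX1 -1.40, COR413IM1 -1.37, GA3 -1.07, C4H -0.94, 4CL2 -0.82, PSK5 -0.82, PIP1B -0.77, DRT102 -0.66, DGK7 -0.60 and CTR1 -0.52. FT, at 37.1 to 50.8 CPM at 3 h, is among the latter. Groups of 3 libraries were not searched for outliers. Against the mock needle at 24 h the same test called 0 genes.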

How the results depend on the processing

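For GA3 24 h against untreated, 989 genes were called, 59.4% of them higher. DESeq2 called 2516 and a fit of the 2 groups alone 0, and the cause was not tested. The share higher was 55.2% with limma-voom, 63.1% with no filter and 51.3% with total counts as library size, where 426 were higher and 404 lower. Without 1 library the count ran from 6 to 1384 and the share higher from 57.9% to 100%. For the mock needle, 156 calls became 1161 with DESeq2 and 36 with limma-voom, and ran from 4 to 233 without 1 library. GA3 24 h against mock gave 0 calls, and 50 with DESeq2. Of the 114 called genes named, 113 kept the call with DESeq2, 89 with limma-voom, 97 with total counts, 111 in the column that ignores strand, 106 with no filter and 0 in the fit of the 2 groups alone. Under these settings 0 changed sign, which the lack of overlap in 983 of the 989 called genes nearly fixed beforehand. Of the 49 named genes that missed the threshold, 22 passed with DESeq2. Same-numbered libraries of the 2 groups deviated together with correlations of 0.202, 0.224 and 0.029. Libraries with unlike numbers were not compared, so these values do not settle whether the numbers pair samples. The main fit did not pair them. With a replicate block 1042 genes were called, of which 819 were among the 989. The block kept 101 of the 114 named calls, and 6 of the 49 named genes that missed the threshold passed. Without 1 library, 2 of the 114 genes kept the call in every fit, PSK5 and BGLU40.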
